A study of Mus musculus with 4 samples.

Results

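The genes described are 10 that encode enzymes of the lower steps of glycolysis, from fructose-bisphosphate aldolase to pyruvate kinase: Aldoa, Aldoc, Tpi1, Gapdh, Pgk1, Pgam1, Pgam2, Eno1, Eno2 and Pkm2. They were chosen by name, as every non-control probe whose gene name in the array files is one of these symbols, and are 10 of the 27582 gene names on the array. No probe carried the names Pkm or Aldoart1, which were also looked for. The 10 genes had 16 probes, with 1 probe for each of 5 genes, 2 for each of 4 and 3 for Pkm2, and all 16 were well above background on all 4 arrays, so no gene was lost to a filter on dim signals.

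The study measured RNA of fibroblasts from mouse embryos, cells that make connective tissue, on 4 one-colour arrays, to compare a high and a low oxygen level in ordinary fibroblasts and in fibroblasts under reprogramming. For 2 arrays the cells carried the reprogramming factors Oct3/4, encoded by Pou5f1, with Sox2, Klf4 and c-Myc by transduction and were kept at 21% or 5% O2 for 72 hours, with day 4 in another label field; these are called four-factor cells. On the other 2 arrays fibroblasts without the factors had been kept at 21% or 5% O2 for 10 days. Every condition had 1 array, so a difference between 2 arrays has no replicate check and no p-value. The labels do not give the mouse strain, the vector or whether the transduced cells were selected.

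Both four-factor arrays were on 1 slide and both untransduced arrays on another, scanned separately. The oxygen comparisons therefore lie within a slide. In the culture comparisons the factors, the days in culture, the slide and the scan cannot be told apart. Nor can they where the oxygen difference of one culture is set against that of the other. Between 57.05% and 68.42% of the 41174 probes were well above background on each array. No spot of any probe was saturated, and the brightest of the 16 probes reached 54.2% of the saturation value. In total RNA of a culture, fewer cells of a type and less RNA per cell cannot be told apart.

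Glycolysis splits glucose into pyruvate. In its lower steps aldolase cleaves fructose 1,6-bisphosphate, triose-phosphate isomerase interconverts the resulting trioses, and glyceraldehyde-3-phosphate dehydrogenase, phosphoglycerate kinase, phosphoglycerate mutase, enolase and pyruvate kinase carry the chain to pyruvate with the net gain of ATP. Several steps have isozymes named for the tissue in which they are prominent, such as the brain-type aldolase C, the neuron-type enolase Eno2 and the muscle-type mutase Pgam2. When oxygen is scarce the transcription factor HIF-1 is stabilised and binds DNA at a short core motif near many glycolytic genes, some of which are also textbook targets of c-Myc.

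The sequence just upstream of 4 of the genes is shown because their values turned out furthest apart: Aldoc, Tpi1 and Pgk1 had the largest oxygen differences in four-factor cells, and Eno2 had almost none. Each is the 250 bases before the most upstream RefSeq start of the gene in build GRCm38.p6, read 5′ to 3′ on the strand of the gene, and capitals mark the HIF core motif ACGTG or GCGTG on either strand (CACGT or CACGC where it lies on the other strand).
The Aldoc window is chr11:78322823-78323072 on the plus strand.
Aldoc: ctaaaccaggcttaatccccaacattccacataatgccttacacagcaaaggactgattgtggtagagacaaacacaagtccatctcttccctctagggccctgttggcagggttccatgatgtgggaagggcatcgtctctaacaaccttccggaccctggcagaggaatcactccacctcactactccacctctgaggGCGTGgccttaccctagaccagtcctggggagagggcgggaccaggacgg
The Tpi1 window is chr6:124814159-124814408 on the minus strand.
Tpi1: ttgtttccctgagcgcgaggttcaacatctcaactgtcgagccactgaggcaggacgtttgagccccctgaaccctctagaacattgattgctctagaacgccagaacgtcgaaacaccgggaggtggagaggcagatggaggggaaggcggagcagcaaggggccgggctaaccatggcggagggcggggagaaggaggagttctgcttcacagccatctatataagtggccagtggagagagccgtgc
The Pgk1 window is chrX:106186850-106187099 on the plus strand.
Pgk1: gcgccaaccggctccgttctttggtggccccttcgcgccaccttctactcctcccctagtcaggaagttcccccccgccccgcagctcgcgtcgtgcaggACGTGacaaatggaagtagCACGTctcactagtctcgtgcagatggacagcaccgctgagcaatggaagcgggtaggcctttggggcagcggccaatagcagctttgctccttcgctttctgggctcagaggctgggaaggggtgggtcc
The Eno2 window is chr6:124769674-124769923 on the minus strand.
Eno2: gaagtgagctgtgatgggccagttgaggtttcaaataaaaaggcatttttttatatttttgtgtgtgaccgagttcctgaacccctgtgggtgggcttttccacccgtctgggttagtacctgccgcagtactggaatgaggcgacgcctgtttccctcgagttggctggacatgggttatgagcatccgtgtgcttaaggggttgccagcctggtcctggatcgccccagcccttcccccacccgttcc

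The Aldoc window held 1 such motif, at position -50 from the start, and the Pgk1 window held 2, at -150 and -131, in opposite orientation. The windows of Tpi1 and Eno2 held none. Over all RefSeq starts of the 10 genes, 11 of 16 windows and 7 of 10 genes had at least 1 motif (Aldoa, Aldoc, Gapdh, Pgk1, Pgam1, Eno1 and Pkm2), against 38.6% of all 32851 windows and 41.5% of the 27025 genes with a window. Some windows of Aldoa and of Eno1 overlap and hold the same motifs, so the 16 windows are not separate sequences. The Pgam1 window held 3, at -175, -114 and -88. The longer E-box CACGTG, which contains ACGTG and is the core bound by MYC with MAX, was in 0 of the 16 windows and in 6.02% of all windows. Tpi1, with 0 matches, had an oxygen difference of 1.16 in four-factor cells, and Pgam1, with 3, one of 0.57. A match is a description of the letters, and a missing match says nothing about sites outside the window.

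Levels are given as log2 of the processed signal relative to the 75th percentile of its own array, so that 0 is the 75th percentile of all probes. Values are listed in the order four-factor cells at 21% O2, four-factor cells at 5% O2, untransduced fibroblasts at 21% O2, untransduced fibroblasts at 5% O2. A level describes 1 probe across arrays and is not set against the level of another gene. The extraction software assigns about 10.0% error to a bright spot, which makes about 0.204 for a log2 difference of 2 spots, and the 10 spots of the Pgk1 probe had a standard deviation of 0.0376 to 0.0583 within an array. These are errors of a spot and not of a culture.

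**Figure D1:**
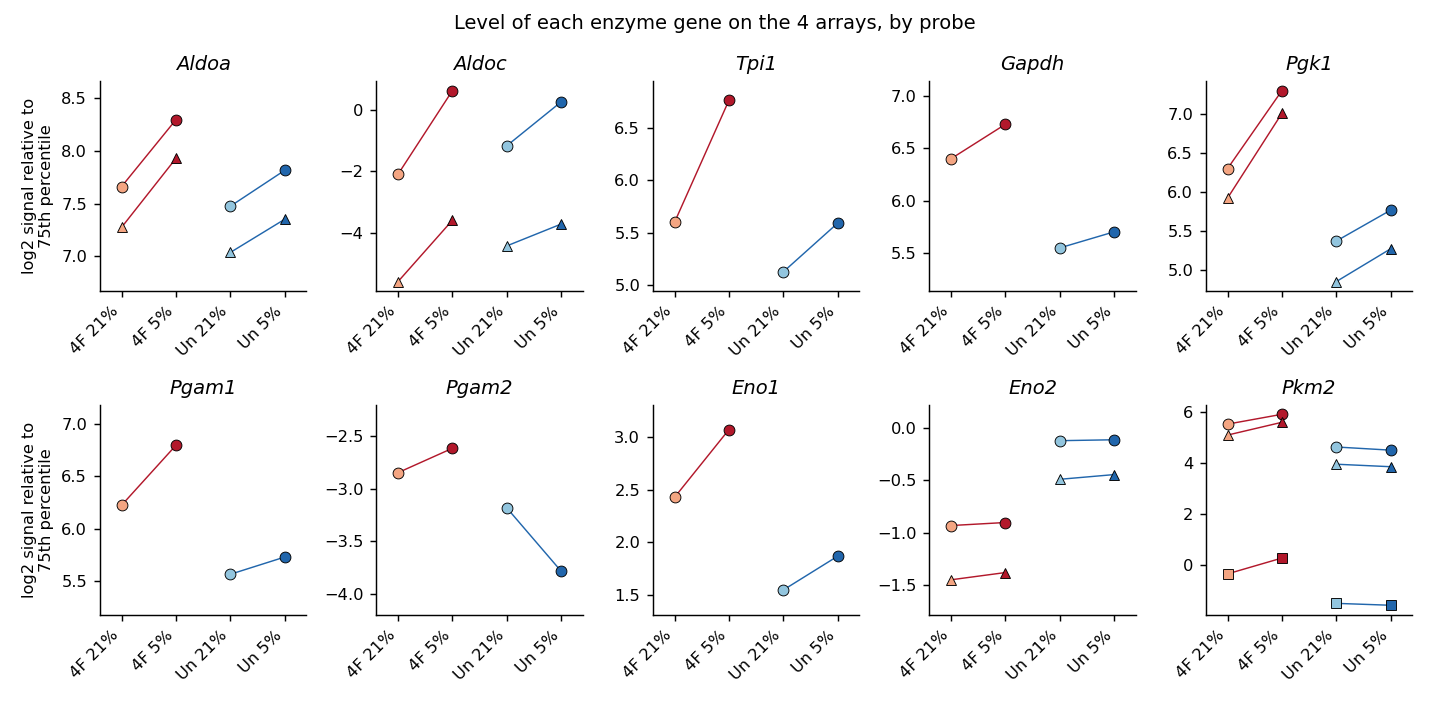
Level of each of the 10 genes on the 4 arrays (vertical axis: log2 signal relative to the 75th percentile of the array; horizontal axis: 4F, four-factor cells, and Un, untransduced fibroblasts, at 21% or 5% O2). Each marker shape is 1 probe, the circle being the probe used for the gene, and lines join the 2 oxygen levels of a culture. In 9 of the 10 genes the highest circle is that of four-factor cells at 5% O2, and in Eno2 both four-factor arrays lie below both untransduced arrays.

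In four-factor cells all 10 genes were higher at 5% than at 21% O2, and the median log2 difference was 0.60 against -0.01 over the 17924 genes measured on both arrays. Of the 10, 5 were at least 1.5-fold higher (Aldoa, Aldoc, Tpi1, Pgk1 and Eno1), as were 4.78% of all genes, and 2 were at least 2-fold higher (Aldoc and Tpi1), as were 1.26% of all genes. Pgk1 stood at the 2-fold line, with a log2 difference of 0.998 and of 1.09 by its second probe. In untransduced fibroblasts 8 were higher at 5% O2 and 2, Pgam2 and Pkm2, were lower, with a median of 0.24 against -0.04 over 15191 genes. There 1 gene, Aldoc, was at least 1.5-fold and also at least 2-fold higher, beside 6.93% and 2.55% of all genes, and 1 gene, Pgam2, was at least 1.5-fold lower, beside 5.73%.

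The oxygen difference was larger in four-factor cells than in untransduced fibroblasts for all 10 genes, beside 52.4% of the 14926 genes measured on all arrays. The difference between the cultures ran from 0.02 in Eno2 to 1.29 in Aldoc. In Eno2 and Gapdh (0.176) it was less than the spot error of 0.204. That error is for a difference of 2 spots, and the error here is larger because more spots enter. Of the 10 genes, 8 were higher at 5% O2 in both cultures, beside 23.7% of all genes, and only Aldoc was at least 1.5-fold higher in both, beside 1.12%. Among the 8, the rise in untransduced fibroblasts was less than the spot error in Gapdh (0.15), Pgam1 (0.16) and Eno2 (0.01). The difference between the oxygen effects has no replicate error, and it was not tested. It also compares the cultures, which differ in the time at each oxygen level, the slide and the scan along with the factors. The part of each of these in the larger oxygen difference was not tested.

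**Figure D2:**
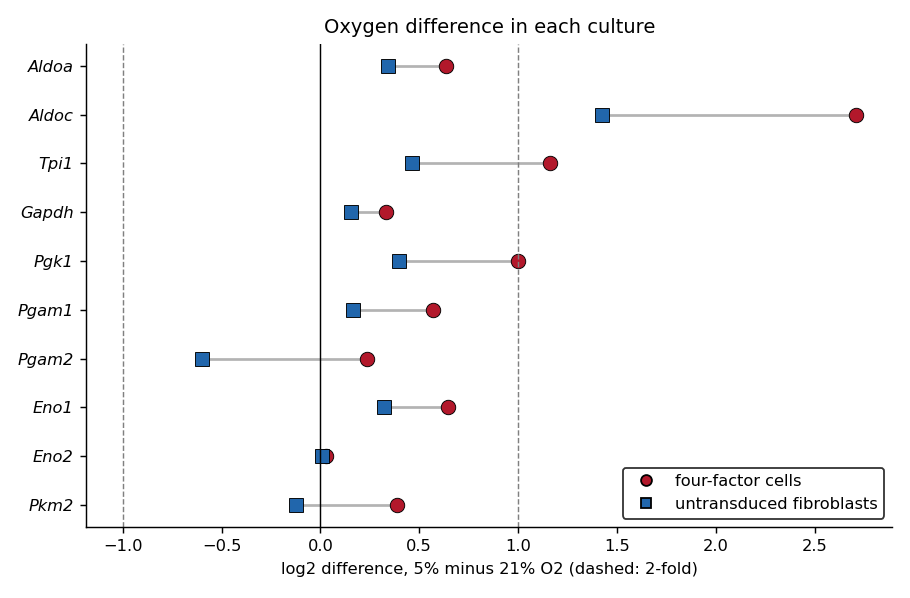
Log2 difference of 5% minus 21% O2 for each gene (horizontal axis) in four-factor cells (red circles) and untransduced fibroblasts (blue squares), with dashed lines at a 2-fold difference; each point compares 1 array with 1 array. Every red circle lies to the right of its blue square, Aldoc is the farthest to the right in both cultures, and both Eno2 points lie at 0.

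At the aldolase step, Aldoa encodes the ubiquitous and muscle-type isozyme, and its probe lies at chr7:126586433-126586492 of build mm8, on the minus strand. Its levels were 7.66, 8.30, 7.47 and 7.82. The 5% O2 array was higher in each culture, by 0.64 in four-factor cells (1.56-fold) and 0.34 in untransduced fibroblasts (1.27-fold), and the lowest level was in untransduced fibroblasts at 21% O2. Four-factor cells at 21% O2 lay 0.19 above untransduced fibroblasts at 21% O2, less than the spot error of a difference. A second Aldoa probe gave oxygen differences of 0.66 and 0.32.

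Aldoc encodes aldolase C, prominent in brain, and had the largest oxygen differences of the 10 genes. Its probe, at chr11:78142657-78142716 on the plus strand of mm8, had signals of 266, 1758, 359 and 1036, or levels of -2.09, 0.61, -1.17 and 0.25. Both 5% O2 arrays were above both 21% O2 arrays, so the oxygen levels did not overlap across the cultures. The share of all genes without such overlap was not counted, so this is a description only. The log2 difference was 2.71 in four-factor cells (6.54-fold), which 0.0502% of all measured genes reached or passed, and 1.42 in untransduced fibroblasts (2.68-fold), reached or passed by 1.08%. Aldoc was also the gene in which the cultures changed places: four-factor cells were lower than untransduced fibroblasts by 0.92 at 21% O2 and higher by 0.36 at 5% O2. A second, dim Aldoc probe with signals of 23.9, 95.7, 37.9 and 66.6 showed the same order within each pair of arrays, with oxygen differences of 1.99 and 0.71.

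Tpi1 encodes triose-phosphate isomerase, which has no isozyme in this set. Its levels were 5.60, 6.76, 5.13 and 5.59, by a probe at chr6:124776548-124776607 on the minus strand of mm8. Four-factor cells at 5% O2 stood above the other 3 arrays by more than 2-fold, while four-factor cells at 21% O2 and untransduced fibroblasts at 5% O2 were nearly level. The oxygen difference was 1.16 in four-factor cells (2.24-fold) and 0.46 in untransduced fibroblasts (1.38-fold). A probe for a Tpi1-like locus had differences of 1.24 and 0.66, and the array cannot say how far the RNA of one binds the probe of the other.

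Gapdh encodes glyceraldehyde-3-phosphate dehydrogenase, often used as a reference gene. Its levels were 6.40, 6.73, 5.55 and 5.71, by a probe at chr6:125128116-125128174 on the minus strand of mm8. Both four-factor arrays were above both untransduced arrays, by 0.85 at 21% O2 and 1.02 at 5% O2. The share of all genes whose cultures lie apart in this way was not counted, here or for Pgam2, Eno2 and Pkm2 below. The oxygen differences, 0.33 and 0.15, were the smallest among the 6 genes that were lowest in untransduced fibroblasts at 21% O2 (Aldoa, Tpi1, Gapdh, Pgk1, Pgam1 and Eno1), and the second is less than the spot error. The array holds 8 further probes for Gapdh-like loci, a family rich in processed copies, and all 8 were above background on all arrays. They were higher at 5% O2 by 0.31 to 0.42 in four-factor cells and by 0.04 to 0.22 in untransduced fibroblasts, and higher in four-factor cells by 0.71 to 2.24 at 21% O2. Gapdh itself is therefore uncertain to the extent that such copies share its probe.

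Pgk1 encodes the phosphoglycerate kinase of somatic cells. Its probe, at chrX:102406147-102406206 on the plus strand of mm8, had 10 spots per array, and its levels were 6.30, 7.29, 5.37 and 5.76. All 4 arrays were apart by more than the spread of those spots. The oxygen difference was 0.998 in four-factor cells and 0.40 in the untransduced cultures. The culture difference was 0.93 at 21% O2 and 1.53 at 5% O2. By the probe used for each gene these were the largest of the 10 genes, though at 21% O2 Pkm2 (0.90) and Eno1 (0.88) were close. The Pkm2 probes not used for that gene had larger culture differences, given below. A second Pgk1 probe, overlapping the first, gave oxygen differences of 1.09 and 0.42 and culture differences of 1.07 and 1.74.

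The mutase step had 2 genes with different patterns. Pgam1, the broadly expressed phosphoglycerate mutase, had levels of 6.22, 6.79, 5.57 and 5.73 by a probe at chr19:41971719-41971778 on the plus strand of mm8. Its oxygen difference was 0.57 in four-factor cells and 0.16 in the untransduced cultures, the second less than the spot error.

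Pgam2, the muscle-type mutase, had signals of 158, 188, 89.3 and 63.2, or levels of -2.85, -2.61, -3.18 and -3.78. Its probe spans 1219 bases of chromosome 11 in mm8 (chr11:5701822-5703040, minus strand), so the genomic match is split. Both four-factor arrays were above both untransduced arrays. The 5% O2 array was higher by 0.23 in four-factor cells and lower by 0.60 in untransduced fibroblasts, the opposite order in the 2 cultures. Of 12 skeletal muscle markers (Myod1, Myog, Ckm, Acta1 and others), 8, 7, 8 and 8 were above background on the 4 arrays in the usual order, and their summed linear level, relative to the 75th percentile, was 7.89, 5.56, 8.34 and 3.71. Myog, Myf5 and Ckm were not well above background on any array. The sum is carried mainly by Acta1, whose oxygen differences were -0.81 with and -1.75 without the factors. Of the markers measured on both arrays, 1 of 7 was higher at 5% O2 in four-factor cells (Myh8, by 1.02) and 3 of 8 in untransduced fibroblasts, with medians of -0.21 and -0.13; the part of muscle cells in the Pgam2 values was not tested.

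Enolase had 2 genes in the set. Eno1, the ubiquitous form, had levels of 2.43, 3.07, 1.54 and 1.87 by a probe whose match spans chr4:149087825-149088050 on the plus strand of mm8. Four-factor cells were above untransduced fibroblasts by 0.88 at 21% O2 and 1.20 at 5% O2, and the 5% O2 array was above the 21% O2 array by 0.65 and 0.32.

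Eno2, the neuron-type enolase, was unlike the other genes. Its levels were -0.93, -0.90, -0.12 and -0.11, by a probe at chr6:124726146-124726205 on the minus strand of mm8. The 2 oxygen levels were alike within each culture, with differences of 0.03 and 0.01 that are far inside the spot error, and the second changed sign under 3 of 8 processing alternatives, the lowest being -0.08 with spike-in scaling. Both four-factor arrays were below both untransduced arrays, by 0.81 at 21% O2 and 0.79 at 5% O2 (log2 differences of -0.81 and -0.79). A second probe gave oxygen differences of 0.07 and 0.04 and culture differences of -0.96 and -0.93. Of 12 neural and glial markers 9 were above background on each array, with summed linear levels of 11.5, 13.3, 6.70 and 8.50. That sum is carried on the four-factor arrays by Tubb3 and Nefl, and the list was mixed between cultures: of the 8 markers measured on both arrays 4 were higher and 4 lower in four-factor cells at each oxygen level, with medians of -0.29 at 21% O2 and -0.07 at 5% O2. At 21% O2, Nefl (5.35), Tubb3 (2.25), Nefm (1.225) and Mbp (0.976) were higher in four-factor cells. Sox10 (-2.83), S100b (-2.06), Map2 (-2.03) and Rbfox3 (-1.57) were lower there. Syp and Gfap were not well above background on any array, and the part of such cells in the Eno2 values was not tested.

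Pyruvate kinase was measured by 3 probes named Pkm2, the name the array gives to the whole locus now called Pkm, so the M1 and M2 splice forms are not separated here. The brightest, at chr9:59477106-59477165 on the plus strand of mm8, had levels of 5.54, 5.92, 4.64 and 4.52. Both four-factor arrays were above both untransduced arrays, by 0.90 at 21% O2 and 1.41 at 5% O2. The 5% O2 array was higher by 0.39 in four-factor cells and lower by 0.12 in untransduced fibroblasts, the latter less than the spot error. The other probes gave oxygen differences of 0.50 and 0.62 in four-factor cells and of -0.10 and -0.08 in untransduced fibroblasts, so all 3 probes had the same signs. Their culture differences were larger than those of the brightest probe, at 1.143 and 1.155 at 21% O2 and 1.741 and 1.851 at 5% O2. Of the splicing factors known to act on Pkm (Ptbp1, Hnrnpa1, Hnrnpa2b1 and Srsf3), all 4 were higher in four-factor cells, by 0.35 to 0.69 at 21% O2 and 0.54 to 1.28 at 5% O2.

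Four-factor cells had higher levels of most of these genes than untransduced fibroblasts, and more so at 5% O2. For each gene the gain in the culture difference from 21% to 5% O2 is, by construction, the difference between the oxygen effects given above. It is therefore not a further result. At 21% O2, 8 of 10 were higher, with a median of 0.56 against -0.02 over all genes. Of these, 5 were at least 1.5-fold higher (Gapdh, Pgk1, Pgam1, Eno1 and Pkm2), beside 23.3% of all genes, and 0 were at least 2-fold higher, beside 11.8%. The other 2, Aldoc and Eno2, were at least 1.5-fold lower, beside 26.0%. At 5% O2, 9 of 10 were higher, with a median of 1.12 against -0.02. The 7 genes at least 1.5-fold higher were all at least 2-fold higher (Tpi1, Gapdh, Pgk1, Pgam1, Pgam2, Eno1 and Pkm2), beside 28.0% and 17.1% of all genes, and Eno2 alone was at least 1.5-fold lower, beside 30.2%. The 2-fold counts depended on the scaling: with arrays scaled on spike-in controls, which moved the median of all genes by 0.44 at 21% O2 and 0.66 at 5% O2, 5 genes were at least 2-fold higher at 21% O2. The sign of each of these culture differences was the same under all scalings tried.

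**Figure D3:**
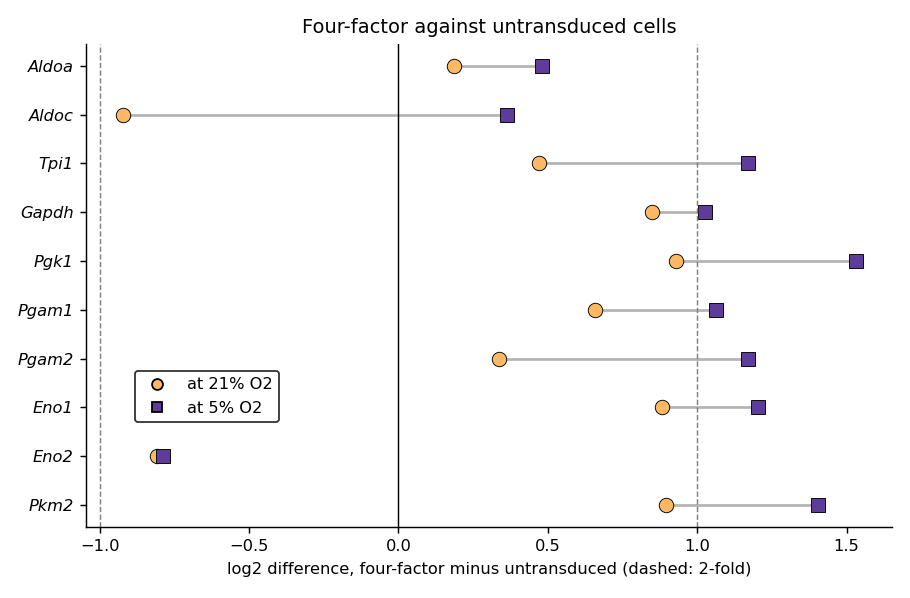
Log2 difference of four-factor minus untransduced cells for each gene (horizontal axis) at 21% O2 (orange circles) and 5% O2 (purple squares), with dashed lines at a 2-fold difference; each point compares 1 array with 1 array. The 7 purple squares past the right dashed line are Tpi1, Gapdh, Pgk1, Pgam1, Pgam2, Eno1 and Pkm2, and Eno2 lies to the left of 0 at both oxygen levels.

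Across all 4 arrays, 9 of the 10 genes had their highest level in four-factor cells at 5% O2, beside 29.9% of all genes, the exception being Eno2. In 5 genes (Tpi1, Gapdh, Pgk1, Pgam1 and Eno1) the full order was four-factor at 5% O2, four-factor at 21% O2, untransduced at 5% O2, untransduced at 21% O2. The share of all genes with this order was not counted, so it is a description only. In that order the neighbours four-factor at 21% O2 and untransduced at 5% O2 differed by less than the spot error in Tpi1, and the 2 untransduced arrays did so in Gapdh and Pgam1. Aldoa differed from the 5 in that untransduced fibroblasts at 5% O2 lay above four-factor cells at 21% O2, though by less than the spot error.

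An additive model with a culture and an oxygen term was fitted to the 4 arrays over 18280 genes with limma. It has 1 residual degree of freedom per gene, and what it takes as error is how far the 2 cultures differ in their response to oxygen, moderated over genes. For the oxygen term none of the 10 genes passed an adjusted p of 0.05, and neither did any other gene: 0.0% were called higher and 0.0% lower, with 646 higher and 755 lower at an unadjusted p under 0.05. In simulated data of this design, 0% of log2 changes of 1 or 2 were called, 76% of changes of 3 and 82% of changes of 4. The estimates here were 2.07 or less, and sizes between or below those simulated were not tried. The lack of calls therefore says nothing about whether these genes changed. The estimates for oxygen were 2.07 ± 0.37 (SE) for Aldoc, 0.81 ± 0.24 for Tpi1 and 0.70 ± 0.22 for Pgk1, with limma adjusted p-values of 0.592, 0.609 and 0.626. The Aldoc call depended on the background correction and on the scaling, since its limma adjusted p was 0.0032 with normexp correction and 7.56e-07 with spike-in scaling and 0.247 or more under the other alternatives.

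For the culture term 5 of the 10 genes rose in four-factor cells (Gapdh, Pgk1, Pgam1, Eno1 and Pkm2), beside 27.3% of all genes, and 1 gene, Eno2, fell, beside 22.8%. The estimates were 1.23 ± 0.22 (SE) for Pgk1, 1.15 ± 0.21 for Pkm2, 1.04 ± 0.18 for Eno1, 0.94 ± 0.17 for Gapdh and 0.86 ± 0.19 for Pgam1, with limma adjusted p-values between 0.0176 and 0.03. The estimate for Eno2 was -0.80 ± 0.16, with a limma adjusted p of 0.0241. Tpi1 had an estimate of 0.82 ± 0.24 and missed the threshold (limma adjusted p = 0.0554), while it passed under 5 of 11 alternatives. The Eno2 call was lost with spike-in scaling (estimate -0.24, limma adjusted p = 0.452) and the Pgam1 call with quantile normalization (0.63, limma adjusted p = 0.0529). Calls were also gained. Pgam2 (limma adjusted p = 0.0851 as reported) passed under 2 of 11 alternatives and Aldoa (limma adjusted p = 0.189 as reported) under 1. The error behind these p-values is how far the cultures differ in their response to oxygen, moderated over genes. Without replicate arrays it holds no spread between cultures of the same condition. The culture term includes the days in culture and the slide.

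The rest of the pathway was read from gene lists. Of 14 genes of glucose uptake and the upper steps, 12 were measured on both four-factor arrays, 10 of them were higher at 5% O2 and 4 were at least 2-fold higher: the glucose transporter Slc2a1 by 2.36, the phosphofructokinase Pfkl by 1.87, the regulator Pfkfb3 by 1.503 and the hexokinase Hk2 by 1.01. The median of the 12 was 0.55, beside 0.60 for the 10 lower genes. In untransduced fibroblasts 10 of 13 upper genes were higher and none at least 2-fold, with a median of 0.15. Of the phosphofructokinases, Pfkl was higher at 5% O2 by 1.87 and 0.87 in the 2 cultures, and Pfkm by 0.03 and 0.05 (the latter -0.04 with spike-in scaling).

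The other isozymes and side enzymes of the lower steps took a different course. The muscle-type enolase Eno3 and the bisphosphoglycerate mutase Bpgm, which makes and removes 2,3-bisphosphoglycerate, were lower at 5% O2 in both cultures, with log2 differences of -0.49 and -0.29 for Eno3 and -0.57 and -0.73 for Bpgm in four-factor and untransduced cells. Both were higher in four-factor cells, Eno3 by 1.62 at 21% O2 and 1.42 at 5% O2 and Bpgm by 1.36 and 1.51. The enolases therefore had 3 patterns: Eno1 was higher at 5% O2 and in four-factor cells, Eno2 was lower in four-factor cells and level between oxygen levels, and Eno3 was higher in four-factor cells and lower at 5% O2. Gapdhs and Pgk2, isozymes of testis, and Pklr, the pyruvate kinase of liver and red cells, were not well above background on any array. A probe named for an aldolase A copy (Aldoart2 in current naming) was above background on 3 arrays, and was higher by 0.96 at 5% O2 in four-factor cells.

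Beyond pyruvate, 12 of 13 genes were measured on both arrays of each comparison. In four-factor cells 7 were higher and 5 lower at 5% O2, with a median of 0.14, and in untransduced fibroblasts 5 were higher and 7 lower, with a median of -0.15. In all, 2 were at least 2-fold higher in both cultures: the lactate exporter Slc16a3, by 4.64 and 2.22, and Pdk1, a kinase that holds back pyruvate dehydrogenase, by 2.64 and 1.38. Lactate dehydrogenase A, Ldha, was higher by 0.74 and 0.28, close to Aldoa and Eno1 in both cultures, and Ldhb was lower, with -0.36 in each. Among 5 genes of gluconeogenesis, which runs the lower steps in reverse, 4 were lower at 5% O2 in four-factor cells, with Fbp1 at -1.30 (G6pc, another of the 4, changed sign with normexp correction), and Fbp1 was higher by 0.89 in untransduced fibroblasts. Of 10 genes of oxygen sensing, four-factor cells had 5 higher and 5 lower at 5% O2 (median -0.02), and 5 of 9 were higher in untransduced fibroblasts, with a median of 0.04. Egln3, a prolyl hydroxylase that marks HIF for removal, was higher at 5% O2 by 3.06 and 1.84 and Egln1 by 1.06 and 0.45. In four-factor cells Epas1, which encodes HIF-2 alpha, was at -0.41 and Egln2 at -0.38, and the RNA of Hif1a was at -0.28 and -0.26 in the 2 cultures. Under the scalings and background correction tried, 7 of the 46 list genes measured in four-factor cells and 6 of the 43 in untransduced fibroblasts changed the sign of their oxygen difference.

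**Figure D4:**
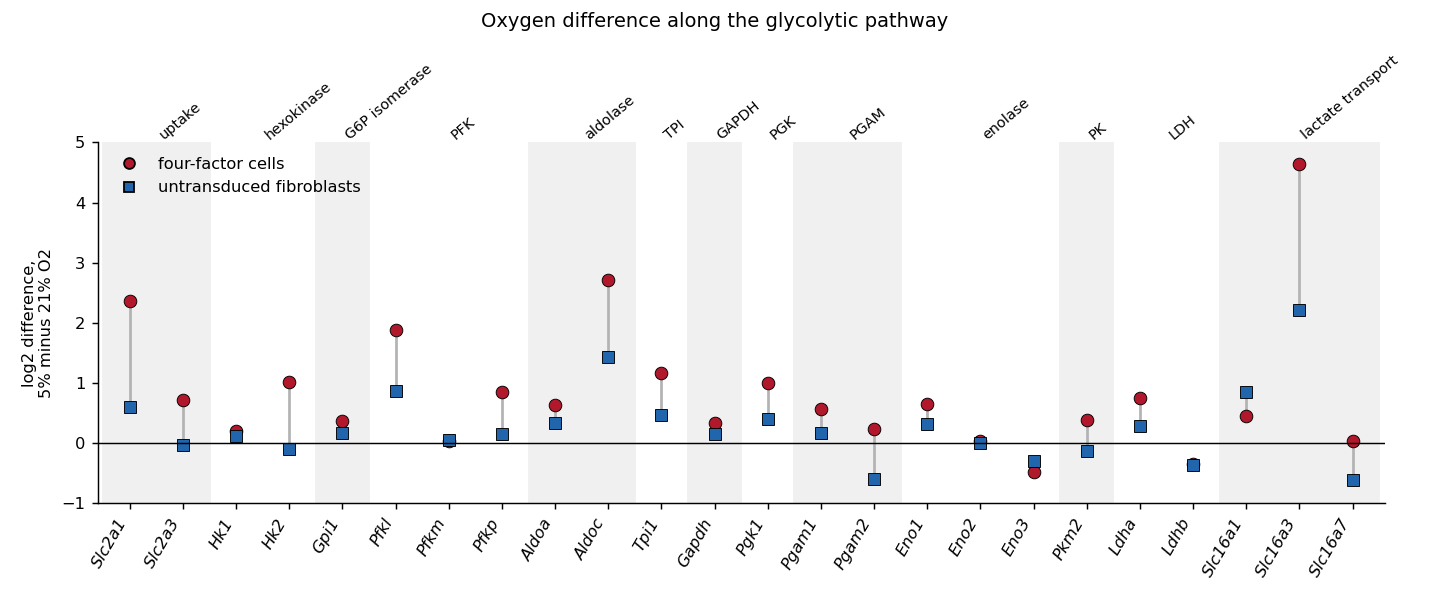
Log2 difference of 5% minus 21% O2 (vertical axis) in four-factor cells (red circles) and untransduced fibroblasts (blue squares) for enzymes and transporters in pathway order, from glucose uptake on the left to lactate transport on the right; shading separates the steps and each point compares 1 array with 1 array. Slc16a3, Aldoc, Slc2a1 and Pfkl stand highest in red at 4.64, 2.71, 2.36 and 1.87, while Eno2 and Pfkm lie near 0 in both cultures.

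The genes with the most similar profile over the 4 arrays were taken among 12248 other genes measured on all arrays, by the Euclidean distance between profiles centred on their mean. Nearest to Aldoc were Pygl, the liver-type glycogen phosphorylase (distance 0.42), Pdk1 (0.69) and Smtnl2 (0.783). Nearest to Eno2 were Esyt1 (0.0143), Pfkm (0.0295) and Tmem126b (0.034), so the enolase and the phosphofructokinase that were level with oxygen also had nearly the same centred levels, -0.41, -0.38, 0.39 and 0.40 for Eno2 and -0.42, -0.38, 0.38 and 0.43 for Pfkm. Nearest to Pgk1 were Vat1l, Skida1 and Rtn1 (0.123 to 0.128), nearest to Pgam2 were Klhl15, Homer1 and Rbbp8 (0.0882 to 0.113), and nearest to the median of the 10 genes were Hs3st3b1, Gcat and Wdr90 (0.0647 to 0.0888). With 4 points per profile such neighbours are a description only.

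The labelled cell type was compared with its markers. All 12 fibroblast markers (Col1a1, Pdgfra, Thy1, Dcn and others) were above background on every array, with a summed linear level of 894, 773, 1390 and 1340. In four-factor cells 10 of 12 were lower than in untransduced fibroblasts at each oxygen level and 8 of them at least 2-fold, with medians of -1.73 and -1.76, among them Dcn (-3.26 at 21% O2) and Lum (-5.60). Their part in the culture differences of the 10 genes was not tested. Of the 4 transduced genes, Pou5f1 was above background only on the four-factor arrays and Myc was higher there by 2.59 at 21% O2 and 4.17 at 5% O2, while the log2 difference of Klf4 was -1.14 and -1.70. Sox2 was above background on both untransduced arrays; with the factors it was at least 5.14-fold lower at 21% O2, where it was not well above background, and the log2 difference at 5% O2 was -2.82. The values of Klf4 and Sox2 thus go against the label of these cells as transduced with them; whether these probes lie in the part carried by the vectors is not known. Of 12 pluripotency markers the four-factor arrays had 7 and 9 above background and the untransduced ones 4 and 3, while the summed linear level was lower in four-factor cells, at 0.709 and 0.948 against 1.36 and 1.55. On the untransduced arrays that sum is carried mainly by Dppa5a, whose four-factor minus untransduced log2 difference was -1.78 at 21% O2 and -2.25 at 5% O2. Of the 4 markers measured on both arrays at 21% O2, four-factor cells had 2 higher and 2 lower (median -0.80). The dimmest signal above background on an array was 9.86 and 9.64 with the factors and 26.5 and 24.9 without them, so the counts above background are not on the same footing.

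Macrophage markers moved with oxygen in the untransduced cultures. All 12 were above background on both untransduced arrays and all 12 were higher at 5% O2, the summed linear level being 16.5 at 21% and 36.1 at 5% O2, beside 0.879 and 0.717 on the four-factor arrays, where 5 of 12 were above background and Adgre1, Mrc1, C1qa and Ptprc were not. Their part in the oxygen differences of the untransduced fibroblasts, Aldoc and Pgam2 included, was not tested.

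**Figure D5:**
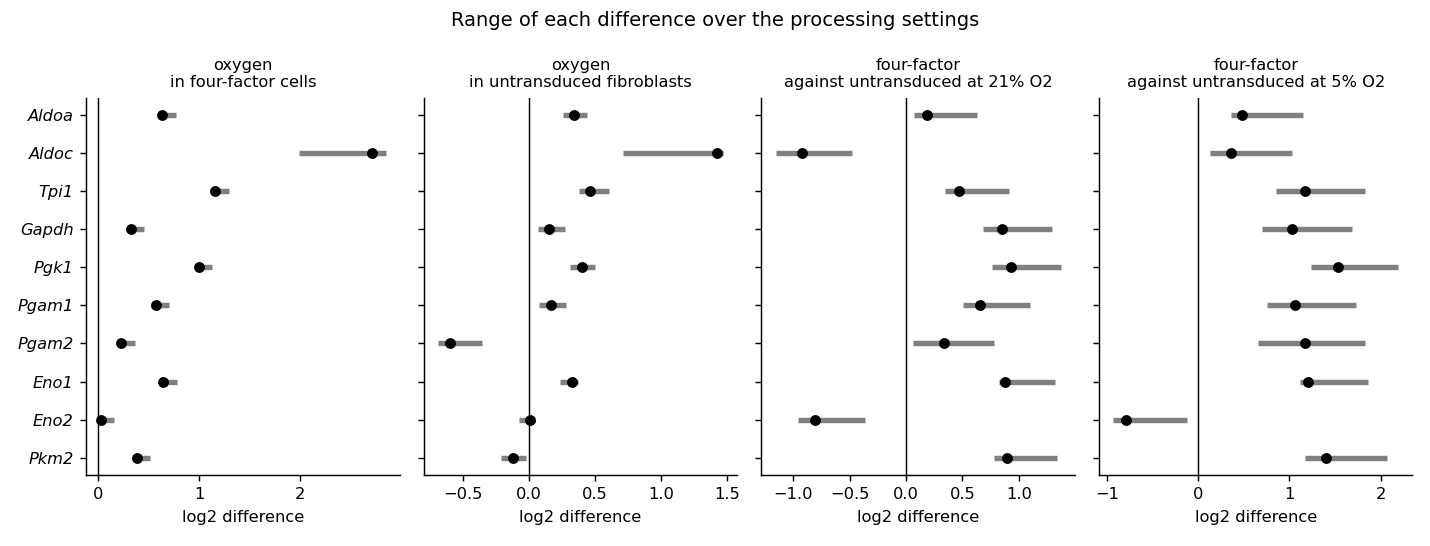
Log2 difference of each gene in the 4 comparisons (horizontal axes) under the reported processing (black dots) and its range (grey bars) over that processing and 8 alternatives in background correction, scaling, choice of probe, source of values and outlier spots. The widest bar for oxygen is that of Aldoc, from 1.99 to 2.84 in four-factor cells, and only the bar of Eno2 in untransduced fibroblasts crosses 0.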

How the data were processed

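RNA of 4 cultures, prepared with Trizol, was labelled with Cy3 (Quick Amp), per the labels' protocols. The scanner software was version 9.5.3.1 of Agilent's Feature Extraction, per the file headers, and it wrote a processed intensity that is background-subtracted but not scaled between arrays; mean and background intensity were deposited uncorrected. The value table deposited by the authors holds log2 values of unstated making. It lay within 0.001 of the value used here for 99.79% to 99.86% of probes, with no centring of probes, and had column medians of -3.86, -3.87, -3.71 and -3.69. Error columns of the software give its error model, per the file headers.

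Here control and outlier spots (65 to 115 of 43379 per array) were dropped, spots of a probe averaged on the log2 scale of the processed signal, and each array's 75th percentile over probes taken off. A gene is its probe of highest mean. Genes counted as measured were well above background on both arrays compared. Positions are of build mm8, per the file headers; symbols were updated and upstream sequences taken from RefSeq GRCm38.p6, and the coding or untranslated part that a probe matches is not given. The limma model (R 4.3.3, limma 3.58.1, lmFit and eBayes) used genes above background on at least 2 arrays with Benjamini-Hochberg adjustment, and its script was tested on simulated data. Python 3.11.15 and pandas 2.3.3 did the rest.

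The 10 genes and the lists were chosen with earlier results of these data known. Named were all 10 genes and their probes, up to 4 genes per list and comparison by size of difference among measured genes, the 4 transduced genes and the 3 nearest profiles of Aldoc, Eno2, Pgk1, Pgam2 and the median. Marker genes, the Gapdh and Tpi1 copies, Ldhb, Pfkm and the isozymes not above background were named beside these after their values were seen, and 1 listed gene is not reported here. Alternatives were normexp correction (offset 50), median, quantile and spike-in scaling, other filters on dim probes, other probe choices, the value table, outlier spots kept, a 1.5-fold threshold and eBayes with a trend.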

Additional observations from a re-analysis of the deposited data

Results flagged for a closer look

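In all, 3 genes had opposite signs under the same contrast in the 2 groups; each rests on 1 array per condition and the difference was not tested. Aldoc was lower in four-factor cells than in untransduced fibroblasts at 21% O2 (-0.92) and higher at 5% O2 (0.36), a difference of 1.29 on the log2 scale. Both of its probes had these signs, though the value of the second at 5% O2, 0.125, is smaller than the spot error of 0.204. Pgam2 was higher at 5% O2 in four-factor cells (0.23) and lower in untransduced fibroblasts (-0.60), a difference of 0.835. Pkm2 was higher at 5% O2 in four-factor cells (0.39) and lower in untransduced fibroblasts (-0.12), a difference of 0.51, and its 3 probes had the same signs; the untransduced value is smaller than the spot error of 0.204.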

How the results depend on the processing

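Each difference of the 10 genes had the same sign under 8 alternatives in correction, scaling, probe, source and outlier spots, except that of Eno2 in untransduced fibroblasts (0.01 as reported, -0.08 with spike-in scaling). All 10 genes had the larger oxygen difference in four-factor cells under every alternative, and 7 or 8 were higher at 5% O2 in both cultures.

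Among the 10 genes, those at least 2-fold higher in four-factor cells at 21% O2 numbered 0 as reported, 3 with median scaling, 5 with spike-in scaling, 1 with probe means, 2 with the second probe and 5 at 1.5-fold. At 5% O2 there were 7, and 4 with quantile normalization. At that oxygen level Aldoa (1.145) and Aldoc (1.027) also passed with spike-in scaling, and Pgam2 (0.652) did not pass with normexp. For oxygen in four-factor cells there were 2, and 5 at 1.5-fold. Pgk1 also passed 2-fold there with median scaling (1.007), spike-in scaling (1.131), probe means (1.042) and the second probe (1.086). In untransduced fibroblasts there was 1, and 0 with the second probe. Quantile normalization gave 2 genes at least 1.5-fold higher in both cultures, against 1. For the limma oxygen term, 1 of the 10 genes passed with normexp and 1 with spike-in scaling, against 0.

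Over all genes at least 2-fold apart, counts are given as higher and lower. For oxygen in four-factor cells they were 225 and 193, with normexp 97 and 38, without a filter 901 and 904, above background on at least 1 array 447 and 391, at 1.5-fold 857 and 1021, and 115 lower with spike-in scaling. In untransduced fibroblasts they were 388 and 262, with normexp 196 and 132, without a filter 1070 and 1102, above background on at least 1 array 774 and 550, and at 1.5-fold 1052 and 870. For four-factor against untransduced cells at 21% O2 they were 1802 and 2522, with spike-in scaling 3686 and 1587, without a filter 3039 and 9787, above background on at least 1 array 3039 higher, and at 1.5-fold 3537 and 3954. At 5% O2 they were 2642 and 3086, with spike-in scaling 5630 and 1660, without a filter 4056 and 9996, above background on at least 1 array 4056 higher, and at 1.5-fold 4326 and 4658. The limma oxygen term called 0 and 0 genes, with normexp 73 and 95 and with spike-in scaling 335 and 247. The limma culture term called 4984 and 4159, with spike-in scaling 9263 and 2574, and 10709 lower without a filter. The cause of these changes was not tested, beyond the genes that a looser filter or threshold adds by construction.

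The limma oxygen term compares the oxygen levels within each culture and slide; the labels give no replicate numbers to pair by otherwise. With 1 array per condition, leaving out an array was not possible. Signal over background limits Pgam2 and the second Aldoc probe most, with signals of 63.2 (untransduced, 5% O2) and 37.9 (untransduced, 21% O2) against 24.9 and 26.5 for the dimmest probe above background on those arrays.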
